A study of Mus musculus with 6 samples.

Results

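Collagens and the other matrix genes known from the fibroblasts of the meninges were examined in hippocampal RNA of Tg2576 mice. The 39 genes were chosen by name: 19 collagen chains, 6 small leucine-rich proteoglycans, 9 matrix glycoproteins, 2 genes of collagen maturation and 3 other genes of meningeal fibroblasts. The choice was made with earlier results of these data known, so that a count over these genes describes them and is not independent evidence of a direction. All mice were males of the C57BL/6 strain (C57BL/6J in the study's methods) and carried the APPSwe transgene, human amyloid precursor protein with the Swedish double mutation under the prion protein promoter, which the study describes as neuron-specific. The 3 groups were 18 month-old mice that had received the angiotensin-converting enzyme inhibitor captopril in their drinking water, at a daily dose of 20 mg/kg over 6 months (named Tg-18mo-ACEI), untreated 18 month-old mice with many amyloid plaques (Tg-18mo) and untreated 12 month-old mice with few (Tg-12mo), the age at which treatment began. No group lacked the transgene, so nothing below is relative to wild-type mice. Each group had 2 chips (Affymetrix MG430 2.0), described as biological replicates, and each chip carried RNA pooled from 4 mice, so that p-values measure the spread between pools and chips, which may be technical, and not that between mice.

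Of the 39 genes, 38 had 1 or more probe sets annotated to them alone, 79 probe sets in all. Fbn1 was not analysed here. The signals are linear intensities for which each chip was scaled to 600. Probe sets entered the test if their group mean reached 100 in at least 1 group. That left 50 probe sets of 33 genes, out of 23262 probe sets and 12325 genes with their own symbol tested in the whole series. Each gene is represented by its probe set of highest mean signal. The genes that stayed below the minimum were Col5a2, Fbln2, Col11a1, Lox and Aspn, with highest group means of 98.2, 77.9, 68.8, 54.5 and 43.1. Just above it lay Col15a1 at 108.6 and Col1a1 at 135, which are the only 2 of the 33 that reached 100 in 1 group alone, Tg-18mo in both cases. Another 5, Col3a1, Col18a1, Col12a1, Crabp2 and Slc22a6, reached it in 2 groups and the other 26 in all 3.

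Fibrillar collagens are secreted as procollagens, trimmed outside the cell and assembled into fibrils whose width is set in part by small leucine-rich proteoglycans bound to their surface. Network collagens, laminins and nidogen build the thinner sheets of basement membrane that surround brain vessels and lie under the pia. Healthy brain parenchyma holds little fibrillar collagen, and in mouse brain most collagen-producing fibroblasts lie in the meninges, around larger vessels and in the stroma of the choroid plexus, so that a dissected hippocampus carries their RNA in amounts that also depend on how much of these tissues is taken along. Captopril lowers the formation of angiotensin II, a peptide known to raise collagen production in heart, kidney and vessel wall.

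The stretches before the transcription starts of 4 genes that differed strongly between groups are shown first, because control of transcription begins there. RefSeq (GRCm38.p6) gave promoter windows for 25 of the 33 genes tested, 29 windows in all, and windows of Col1a1, Col9a3, Col12a1, Dcn, Lum, Fn1, Mgp and Crabp2 were not used here. The 120 bases that end just before the start are printed 5′ to 3′ on the gene's strand, at Col8a1 chr16:57754738-57754857 on the minus strand, Col8a2 chr4:126286674-126286793 on the plus strand, Pcolce chr5:137611405-137611524 on the minus strand and Fmod chr1:134037134-134037253 on the plus strand. Capitals mark matches, on either strand, to 5 short motifs that were searched in 250 bases before the start, namely the TATA box in its form TATAAA, the CCAAT box, the GC box GGGCGG, the AP-1 site TGAGTCA and the SMAD element CAGACA.
Col8a1: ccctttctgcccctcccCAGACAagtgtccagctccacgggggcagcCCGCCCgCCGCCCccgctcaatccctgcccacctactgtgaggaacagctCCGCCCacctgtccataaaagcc
Col8a2: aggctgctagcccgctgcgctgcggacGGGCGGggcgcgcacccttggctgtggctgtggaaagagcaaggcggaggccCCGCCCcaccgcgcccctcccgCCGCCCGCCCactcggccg
Pcolce: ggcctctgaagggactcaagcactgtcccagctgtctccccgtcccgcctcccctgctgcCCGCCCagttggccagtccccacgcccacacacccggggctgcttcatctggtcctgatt
Fmod: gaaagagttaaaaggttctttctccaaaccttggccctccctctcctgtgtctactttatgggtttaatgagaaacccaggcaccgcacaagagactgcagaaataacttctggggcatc
The Col8a1 and Col8a2 stretches held several GC boxes, that of Pcolce held 1, and that of Fmod held none of the 5 motifs. GGGCGG occurred in 14 of 29 member windows and in 32.7% of all windows, CAGACA in 9 of 29 member windows and in 17.1% of all windows, CCAAT in 8 of 29 member windows and in 33.8% of all windows, TATAAA in 3 of 29 member windows and in 12.4% of all windows, and TGAGTCA in 1 of 29 member windows and in 4.46% of all windows. In 5 member windows matches overlapped, as do the last pair of GC boxes of Col8a2. A match describes letters only and does not show that a factor binds there.

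With captopril, collagen and meningeal matrix genes were lower in the hippocampus. Of the 33 genes tested, 22 were lower in Tg-18mo-ACEI than in Tg-18mo at an adjusted p under 0.05 (limma, Benjamini-Hochberg across the probe sets of the whole chip), 0 were higher (also 0 at an unadjusted p under 0.05) and 11 did not pass, while over all 12325 genes 21.7% were lower and 12.6% higher. The log2 difference was negative for 32 of 33 genes, with a median of -0.63, against a median of -0.08 over all genes, and with the tested probe sets of a gene averaged it was negative for 30. The chips of the groups did not overlap for 31 of 33, and for 72.0% of all genes. Because a gene could be tested on account of its Tg-18mo signal alone, the count was also taken over the 21 genes with a mean of 200 or more over all 6 chips, of which 16 were lower (23.8% of all genes at that level) and the other 5 did not pass. At an unadjusted p of 0.01 and a 2-fold difference, the thresholds of the study's methods, 8 genes were lower (1.26% of all genes) and 0 higher (0.876%). Here and below these thresholds were applied to the limma fit and not with the study's own test. Leaving out 1 chip at a time left between 15 and 22 genes lower. The calls of Col5a1, Col15a1, Col6a2, Col6a3, Col16a1, Dcn, Bgn, Fbln1 and Slc22a6 were lost without at least 1 chip, and the lowest count came without the first Tg-18mo chip, whereas 13 genes kept theirs whichever chip was left out. In bulk tissue, fewer of the cells that express these genes, fibroblasts or others, and less of their RNA per cell cannot be told apart.

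**Figure D1:**
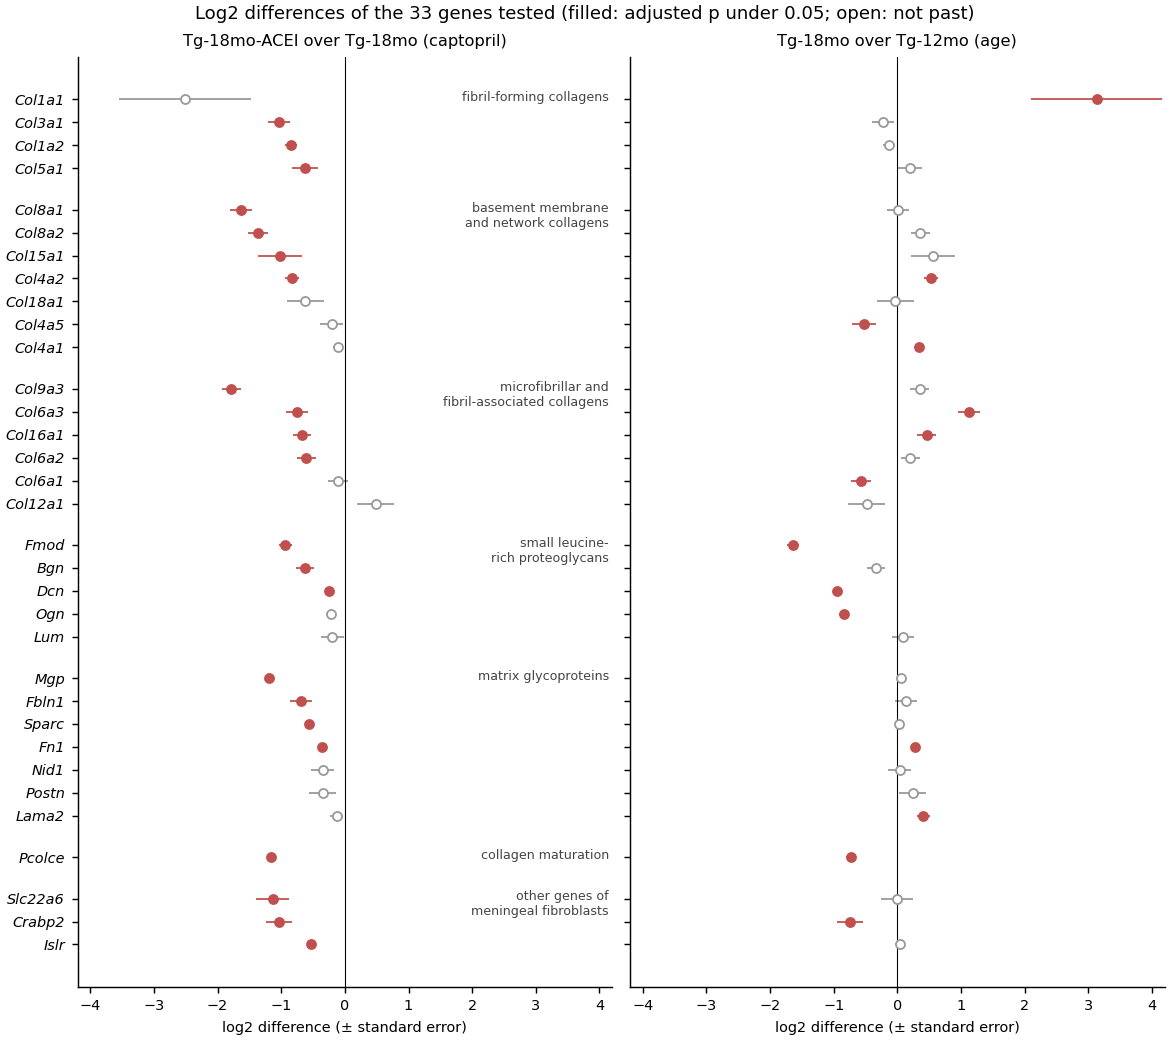
Log2 differences (horizontal axis, with standard errors) of the 33 genes tested, grouped by role down the page, for Tg-18mo-ACEI over Tg-18mo on the left and Tg-18mo over Tg-12mo on the right. Filled points passed an adjusted p of 0.05. On the left 32 of 33 points lie below 0 and 22 are filled, while on the right 7 filled points lie above 0 and 7 below.

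Among the fibril-forming collagens, 3 of the 4 tested were lower with captopril and Col1a1 did not pass. Col3a1, the chain of type III collagen, had signals of 88.0 and 87.6 in Tg-18mo-ACEI, 169.8 and 191 in Tg-18mo and 208 and 211 in Tg-12mo. The captopril chips were well under the others and below the minimum of 100, with no overlap (log2 difference -1.04 ± 0.17, adjusted p = 0.0027). Col1a2, the second chain of type I collagen, read 359 and 349 in Tg-18mo-ACEI on its brightest probe set, against 591 and 686 in Tg-18mo (log2 difference -0.85 ± 0.10, adjusted p = 3.7e-04). For Col5a1, of type V collagen, which starts fibril assembly, the log2 difference was -0.63 (adjusted p = 0.043). Col1a1, the main chain of type I collagen, had low and scattered signals on its tested probe set, 69.3 and 8.01 in Tg-18mo-ACEI, against 119.5 and 150.3 in Tg-18mo. Its log2 difference of -2.51 ± 1.04 had an adjusted p of 0.096, and signals this low do not fix the size of a ratio.

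The basement membrane and network collagens, all 7 of them tested, were lower in 4 cases. Col8a1 and Col8a2 encode the chains of type VIII collagen, a short-chain network collagen of vessel walls and of the corneal Descemet's membrane. Col8a1 had signals of 165 and 118 in Tg-18mo-ACEI, 482 and 392 in Tg-18mo and 418 and 445 in Tg-12mo. Both captopril chips lay well under every other chip (log2 difference -1.63 ± 0.18, adjusted p = 3.1e-04). Col8a2 read 140.3 and 123 in Tg-18mo-ACEI, against 371 and 309 in Tg-18mo, with 249.8 and 277 in Tg-12mo (log2 difference -1.37 ± 0.16, adjusted p = 3.9e-04). The 2 chains thus fell together, and both kept their calls whichever chip was left out. Col15a1, a basement membrane collagen related to Col18a1, was dim, with 59.3 and 45.5 in Tg-18mo-ACEI, 81.7 and 135 in Tg-18mo and 66.9 and 76.4 in Tg-12mo. Its call was near the threshold (log2 difference -1.02 ± 0.34, adjusted p = 0.0496) and was lost without either captopril chip or without the second Tg-18mo chip, which gave the smallest difference (log2 difference -0.65, adjusted p = 0.33). Col18a1, the source of endostatin, had a log2 difference of -0.62 that did not pass (adjusted p = 0.13).

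The chains of type IV collagen, the sheet-forming collagen of basement membranes, had 1 of 3 tested lower, Col4a2. It had signals of 375 and 327 in Tg-18mo-ACEI, against 625 and 623 in Tg-18mo (log2 difference -0.83 ± 0.11, adjusted p = 8.3e-04). For Col4a1, its partner in the same trimer, they were 783 and 702 in Tg-18mo-ACEI, against 797 and 806 in Tg-18mo. These values nearly met, and the difference did not pass (log2 difference -0.11 ± 0.08, adjusted p = 0.31). Col4a1 and Col4a2 lie head to head on chromosome 8 with starts 21 bases apart in the RefSeq table. The first bases of the transcripts overlap there, and the promoter windows share 78 bases. Col4a5, a chain of specialised basement membranes such as that of the glomerulus, had a log2 difference of -0.21 (adjusted p = 0.41). A test of whether the differences of Col4a1 and Col4a2 differ from each other was not made, since they come from different probe sets.

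Of the 6 microfibrillar and fibril-associated collagens, 4 were lower with captopril. By the brightest probe set the largest difference of the 22 genes belonged to Col9a3, a chain of type IX collagen, which decorates the type II fibrils of cartilage. Its signals were 125 and 162 in Tg-18mo-ACEI, 523 and 462 in Tg-18mo and 374 and 397 in Tg-12mo. The captopril chips lay far below the rest (log2 difference -1.79 ± 0.15, adjusted p = 7.7e-05). With its tested probe sets averaged the difference was -1.15, smaller than that of Col8a1 at -1.60. Type VI collagen forms beaded microfilaments from 3 chains. Of these, Col6a3 had 138 and 148 in Tg-18mo-ACEI against 258 and 226 in Tg-18mo (log2 difference -0.76 ± 0.17, adjusted p = 0.011), and Col6a2 was lower, with a log2 difference of -0.61 (adjusted p = 0.016). Col6a1, which lies next to Col6a2 on chromosome 10, had overlapping chips, 189 and 188 in Tg-18mo-ACEI, against 186 and 223 in Tg-18mo, and did not pass (adjusted p = 0.61). Col16a1 was lower too, at -0.68 (adjusted p = 0.0074). Col12a1, which associates with type I fibrils, had a positive difference, 0.48 ± 0.29, that did not pass (adjusted p = 0.23). No other gene was positive by its brightest probe set, though a dimmer probe set was for Col4a1 (0.16, adjusted p = 0.56) and Ogn (0.36, adjusted p = 0.099).

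Small leucine-rich proteoglycans were lower in 3 of 5 cases with captopril, with a median log2 difference of -0.25. Fibromodulin, encoded by Fmod, binds type I fibrils and had signals of 357 and 296 in Tg-18mo-ACEI, 610.3 and 633 in Tg-18mo and 1945 and 1937 in Tg-12mo. The 3 groups were fully apart, with the captopril chips lowest (log2 difference -0.94 ± 0.10, adjusted p = 2.3e-04). Biglycan, Bgn, was lower by the same test (log2 difference -0.63 ± 0.14, adjusted p = 0.01). Decorin, Dcn, which binds collagen fibrils through its protein core, had 1719 and 1654 in Tg-18mo-ACEI, 2058 and 1963 in Tg-18mo and 3958 and 3840.3 in Tg-12mo. Its captopril difference was small (log2 difference -0.25 ± 0.05, adjusted p = 0.0072). Osteoglycin, Ogn, had 489 and 512 in Tg-18mo-ACEI, against 557 and 605 in Tg-18mo, and lumican, Lum, had overlapping chips. Neither passed (log2 differences -0.21 and -0.20, adjusted p = 0.07 and 0.42).

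Of the 7 matrix glycoproteins tested, 4 were lower. Mgp, matrix Gla protein, an inhibitor of calcification, had signals of 549.8 and 564 in Tg-18mo-ACEI, 1316 and 1233 in Tg-18mo and 1205 and 1247 in Tg-12mo. Both captopril chips lay below the other 4, which were close together (log2 difference -1.19 ± 0.07, adjusted p = 8.6e-06). Sparc, a collagen-binding protein made by several brain cells as well as by fibroblasts, had 4518 and 4641 in Tg-18mo-ACEI against 6798 and 6767 in Tg-18mo (log2 difference -0.57 ± 0.04, adjusted p = 5.0e-05). Fbln1, which binds elastic fibres and basement membranes, and Fn1, fibronectin, had log2 differences of -0.69 and -0.36 (adjusted p = 0.015 and 0.0049). Postn, Nid1, which links laminin to type IV collagen, and Lama2, a laminin chain of vascular and muscle basement membranes, did not pass, with log2 differences between -0.35 and -0.13.

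Pcolce speeds the removal of the procollagen C-propeptide by the protease Bmp1. Its signals were 550.0 and 508 in Tg-18mo-ACEI, 1154 and 1216 in Tg-18mo and 1971 and 1972 in Tg-12mo. They fell into 3 separate levels, the captopril chips lowest (log2 difference -1.16 ± 0.07, adjusted p = 9.8e-06). All 3 other genes of meningeal fibroblasts were lower. Slc22a6, an organic anion transporter, had 59.2 and 85.4 in Tg-18mo-ACEI, 168 and 146 in Tg-18mo and 178 and 139.6 in Tg-12mo (log2 difference -1.14 ± 0.25, adjusted p = 0.0098). Crabp2, which carries retinoic acid, had 88.0 and 65.8 in Tg-18mo-ACEI, 149 and 164 in Tg-18mo and 267 and 259 in Tg-12mo (log2 difference -1.04 ± 0.20, adjusted p = 0.0054). For both, the captopril signals lay below the minimum of 100, so that the direction is firmer than the size. Islr, a leucine-rich repeat protein, had a log2 difference of -0.53 (adjusted p = 0.0012).

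**Figure D2:**
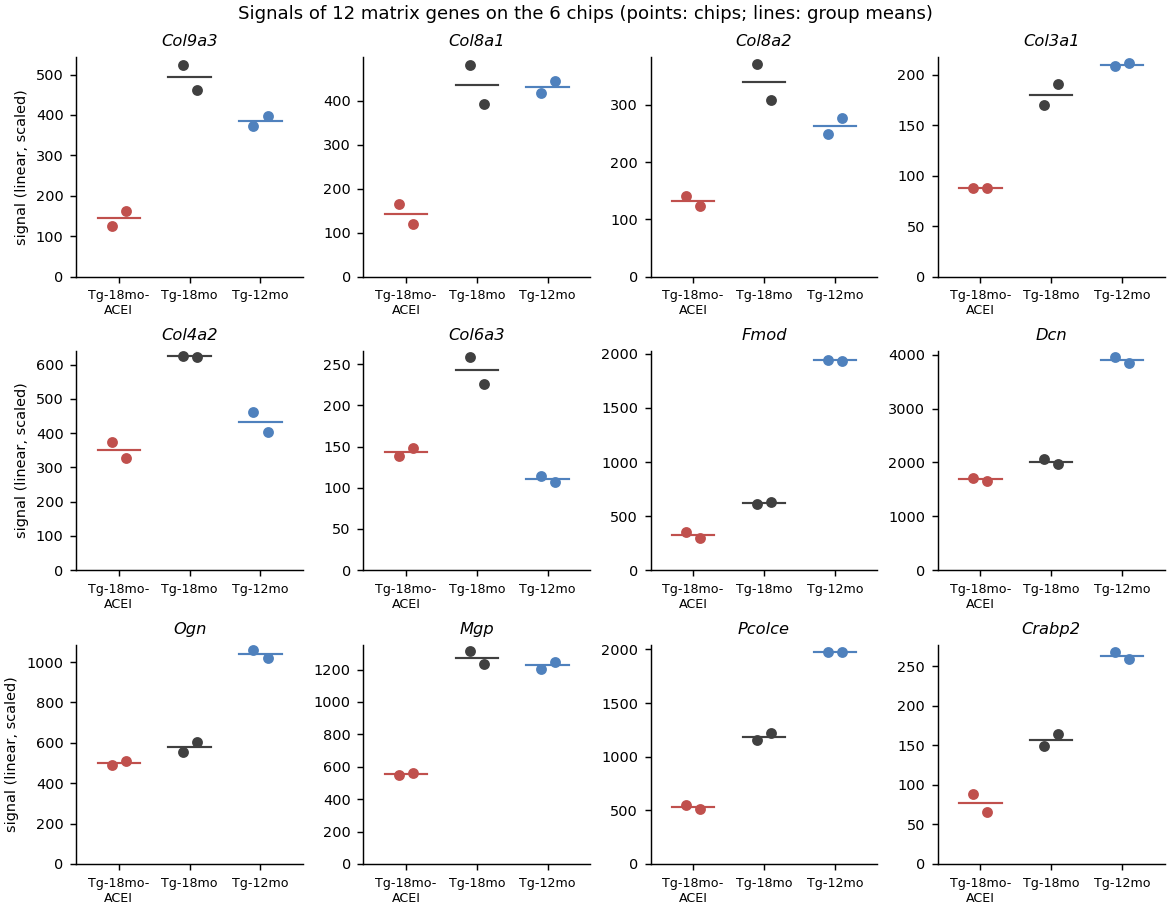
Linear signals (vertical axes, each starting at 0) of 12 matrix genes on the 6 chips, with Tg-18mo-ACEI, Tg-18mo and Tg-12mo from left to right. Each point is a chip and each line the mean of its group. Col9a3, Col8a1 and Mgp are low on the captopril chips alone, Fmod, Pcolce and Crabp2 step down through all 3 groups from right to left, and Dcn and Ogn are high on the Tg-12mo chips alone.

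Between the ages these genes went both ways. In Tg-18mo, 7 of the 33 genes were higher than in Tg-12mo (28.0% of all genes were) and 7 were lower (21.0% of all genes), and 19 did not pass. The median log2 difference was 0.04, against 0.06 over all genes. After quantile normalization it was -0.03, against 0.03 over all genes. The 3 proteoglycans that passed were lower, as were Pcolce and Crabp2, whereas 5 of the 7 collagens that passed and both glycoproteins that passed were higher. Col1a1 could be tested on its Tg-18mo signal alone. Among the 21 genes with a mean of 200 or more over all chips, 5 were higher (30.8% of all genes at that level) and 5 lower (23.6%), and at the thresholds of the study's methods 1 of the 33 was higher (2.13% of all genes) and 1 lower (0.746%). The chips of the groups did not overlap for 24 of 33 (75.9% of all genes). Many of these calls rested on single chips. Col1a1, Col4a5, Col6a1, Col16a1, Fn1, Lama2 and Crabp2 each lost theirs without at least 1 chip, and the other 7 kept them. Without the second Tg-18mo chip 3 genes were higher, and without the first Tg-18mo chip or the first Tg-12mo chip 4 were lower.

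Of the proteoglycans, Fmod changed most with age. Its Tg-18mo chips read 610.3 and 633 and its Tg-12mo chips 1945 and 1937 (log2 difference -1.64 ± 0.10, adjusted p = 1.3e-05), and all 6 of its probe sets tested were lower. Dcn had 2058 and 1963 in Tg-18mo, against 3958 and 3840.3 in Tg-12mo (log2 difference -0.96 ± 0.05, adjusted p = 9.5e-06). Ogn was similar, with 557 and 605 in Tg-18mo and 1058 and 1021 in Tg-12mo (log2 difference -0.84 ± 0.08, adjusted p = 8.1e-05). The 3 genes shared this pattern, the 18 month chips of either group lying below both 12 month chips without overlap. Lum, the neighbour of Dcn on chromosome 10, had a log2 difference of 0.09 ± 0.18 with overlapping chips (adjusted p = 0.71). Pcolce and Crabp2 were lower at 18 months (log2 difference -0.74 ± 0.07, adjusted p = 6.9e-05, and log2 difference -0.75 ± 0.20, adjusted p = 0.016).

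Among the collagens, Col6a3 had 258 and 226 in Tg-18mo and 115 and 107 in Tg-12mo (log2 difference 1.12 ± 0.17, adjusted p = 0.001). Its captopril chips, 138 and 148, lay between those groups. Col6a1 went the other way, with 186 and 223 in Tg-18mo and 325 and 283 in Tg-12mo (log2 difference -0.57 ± 0.15, adjusted p = 0.014). Both chains of type IV collagen that share a trimer were higher at 18 months. For Col4a2 the signals were 625 and 623 in Tg-18mo and 461 and 403 in Tg-12mo (log2 difference 0.54 ± 0.11, adjusted p = 0.0045), and for Col4a1 they were 797 and 806 in Tg-18mo and 633 and 628 in Tg-12mo (log2 difference 0.35 ± 0.08, adjusted p = 0.0073). Col4a5 was lower, 128 and 128 in Tg-18mo against 195 and 174 in Tg-12mo (log2 difference -0.52 ± 0.18, adjusted p = 0.043), a call that was lost whichever of the 6 chips was left out. Its other probe set, below the minimum and not tested, went the other way, with 92.5 and 82.0 in Tg-18mo and 66.0 and 66.6 in Tg-12mo. Col1a1, which entered the test through Tg-18mo only, had 119.5 and 150.3 in Tg-18mo and 7.12 and 32.9 in Tg-12mo (log2 difference 3.13 ± 1.04, adjusted p = 0.036), and the Tg-12mo signals are near the bottom of the scale, so that the size is not fixed. With 32 added to each signal its difference was 1.72, and the call was lost without either Tg-18mo chip or the first Tg-12mo chip. The untested probe set of Col1a1 did not show this rise, with 34.3 and 43.1 in Tg-18mo and 43.4 and 59.6 in Tg-12mo. Col16a1, Fn1 and Lama2 were higher by 0.46, 0.28 and 0.41 on the log2 scale. Col3a1, Col8a1, Mgp, Sparc and Slc22a6, all lower with captopril, did not pass between the ages, with log2 differences between -0.22 and 0.06 on their brightest probe sets.

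Captopril-treated mice of 18 months were also set against the mice of 12 months, the age at which treatment began. Here 18 of the 33 genes were lower (20.6% of all genes) and 1 was higher (20.1% of all genes), with a median log2 difference of -0.55 against 0.01 over all genes. The chips did not overlap for 29 of 33 (70.9% of all genes). Of the 21 genes with a mean of 200 or more, 14 were lower (22.7% of all genes at that level) and 1 higher (22.5%), and at the thresholds of the study's methods 11 of the 33 were lower (1.25% of all genes) and 0 higher (0.966%). The largest differences were those of Fmod (log2 difference -2.58 ± 0.10, adjusted p = 2.7e-06), Pcolce (log2 difference -1.90 ± 0.07, adjusted p = 2.4e-06) and Crabp2 (log2 difference -1.79 ± 0.20, adjusted p = 2.6e-04), whose chips have been given above. Col8a1, Col9a3, Col3a1, Dcn, Slc22a6, Mgp and Ogn were lower by log2 differences from -1.62 to -1.05 (adjusted p = 0.0073 for Slc22a6 and lower for the others). The gene that was higher was Col4a1 (log2 difference 0.23 ± 0.08, adjusted p = 0.045), a call that was lost when any chip but the second Tg-18mo-ACEI chip was left out. The calls of Col4a5 and Fbln1 also depended on single chips, while 16 of 19 did not.

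By the brightest probe sets, call patterns over the 3 comparisons were counted. The comparisons share their chips, so that their calls are given side by side and no agreement between them is drawn. Of the 33 genes, 11 were lower with captopril than in either untreated group and did not pass between the ages (5.06% of all genes), among them Col9a3, Col8a1, Col8a2, Col3a1, Col1a2, Mgp and Sparc. Another 4, Dcn, Fmod, Pcolce and Crabp2, were lower in all 3 comparisons (1.70% of all genes). The 4 genes Col4a2, Col6a3, Col16a1 and Fn1 were higher at 18 than at 12 months and lower with captopril than in Tg-18mo, and did not pass between Tg-18mo-ACEI and Tg-12mo (7.78% of all genes). The 3 genes Col4a5, Col6a1 and Ogn were lower at 18 months in both treated and untreated mice and did not pass between those (9.10% of all genes). For 5 genes, Col18a1, Col12a1, Lum, Postn and Nid1, no comparison passed (34.3% of all genes).

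Probe sets of the same gene can read different transcripts, and 12 of the 33 genes had 2 or more tested. With captopril all 50 probe sets gave 30 lower and 20 not past, and no gene had calls in both directions. The shares over all probe sets tested are not given here, and the shares above are by gene, so that counts of probe sets have no background beside them. Between the ages the 10 higher and 16 lower probe sets included 1 gene with both. Bgn was higher in Tg-18mo on probe set 1437889_x_at, 531 and 455 against 284 and 280.0 in Tg-12mo (log2 difference 0.80 ± 0.27, adjusted p = 0.038), and lower on 1448323_a_at, 372 and 365 against 506 and 511 (log2 difference -0.47 ± 0.10, adjusted p = 0.0048). Its direction with age is therefore not settled, whereas with captopril all 3 probe sets were lower. Fbln1 was split in the same way between Tg-18mo-ACEI and Tg-12mo. Probe set 1451119_a_at read 296 and 222 in Tg-18mo-ACEI, against 332 and 426 in Tg-12mo (log2 difference -0.55 ± 0.17, adjusted p = 0.031), and 1422540_at read 184 and 216 in Tg-18mo-ACEI, against 151 and 121 in Tg-12mo (log2 difference 0.56 ± 0.17, adjusted p = 0.032), and their average gave a difference near 0 (adjusted p = 0.98). For Sparc the second probe set, 1448392_at, read 4050.0 and 4035 in Tg-18mo-ACEI, 4577 and 4658 in Tg-18mo and 3449.5 and 3982 in Tg-12mo. It did not pass with captopril (log2 difference -0.19 ± 0.07, adjusted p = 0.056) or between Tg-18mo-ACEI and Tg-12mo (log2 difference 0.13), and was higher with age (log2 difference 0.32 ± 0.07, adjusted p = 0.0048), so that the call pattern of Sparc holds for its brightest probe set only. For Col9a3 the second probe set, 1460693_a_at, had 102 and 90.2 in Tg-18mo-ACEI, 135 and 139 in Tg-18mo and 439.9 and 315 in Tg-12mo. It was lower with age (log2 difference -1.44 ± 0.20, adjusted p = 5.6e-04), while the captopril difference of -0.51 did not pass (adjusted p = 0.081), and the average of both probe sets was lower with age (-0.55, adjusted p = 0.0091). For Col6a2 the second probe set was lower with age (-0.74, adjusted p = 0.0066) where the brightest had 0.21 and did not pass. The second probe sets of Col6a2 and Fbln1 did not pass with captopril (-0.45 and -0.36, adjusted p = 0.066 and 0.15). That of Col1a2, 1423110_at, did not pass with captopril (-0.34, adjusted p = 0.26) or between Tg-18mo-ACEI and Tg-12mo (-0.58, adjusted p = 0.069). With probe sets averaged, Col6a2, Fbln1 and Col1a2 were lower with captopril (adjusted p = 0.013, 0.0068 and 0.0053). The second probe set of Pcolce was lower with captopril (-1.45, adjusted p = 6.8e-04) but did not pass with age (0.30, adjusted p = 0.21), and when the probe sets of Pcolce were averaged its age difference was -0.22 and not past (adjusted p = 0.13). For the microfibrillar group the median age difference, 0.28 by the brightest probe sets, was -0.37 when all tested probe sets of each gene were averaged.

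**Figure D3:**
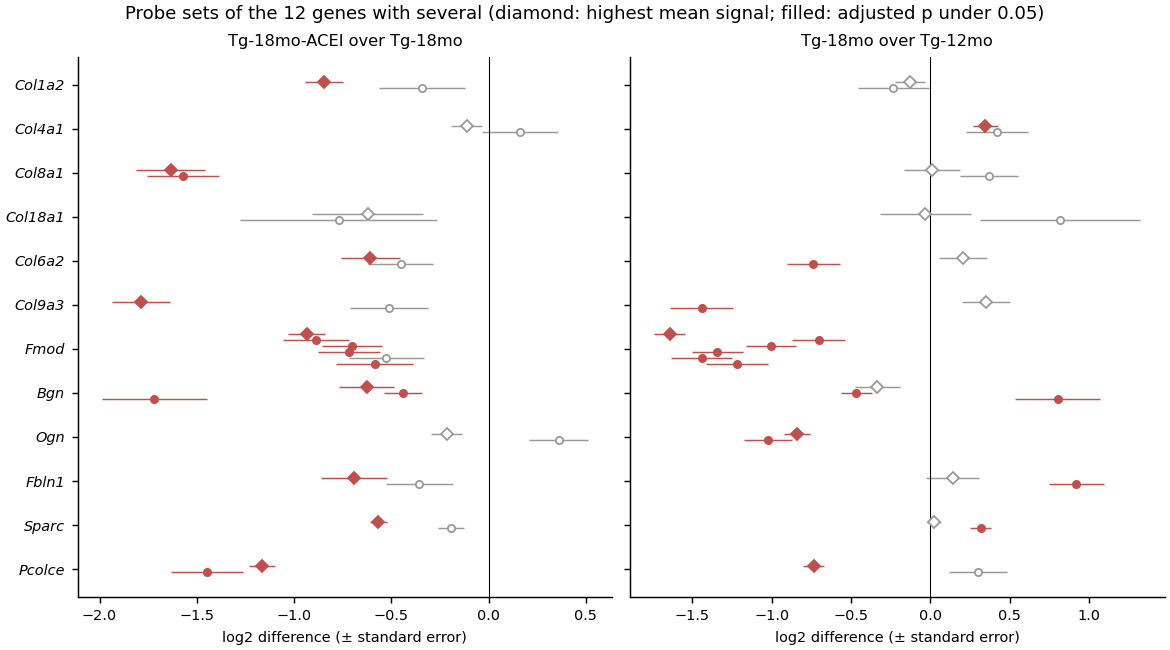
Log2 differences (horizontal axes, with standard errors) of every tested probe set of the 12 genes that had 2 or more, for Tg-18mo-ACEI over Tg-18mo on the left and Tg-18mo over Tg-12mo on the right. Diamonds mark the probe set of highest mean signal and filled symbols passed an adjusted p of 0.05. On the left no filled symbol lies above 0, while on the right Bgn has filled symbols on both sides and all 6 of Fmod lie below 0.

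Genes that make, shape and sense this matrix were counted from lists, beside 21.7% of all genes lower and 12.6% higher with captopril. Of 15 enzymes of collagen biosynthesis tested, 5 were lower with captopril and the others did not pass (median log2 difference -0.19). Between the ages 7 were higher in Tg-18mo (28.0% of all genes were) and the others did not pass. Pcolce2, a second enhancer of procollagen cleavage, had 305 and 294 in Tg-18mo-ACEI, against 608 and 590.1 in Tg-18mo (adjusted p = 1.4e-04). The lysyl hydroxylases Plod1 and Plod3 were lower by log2 differences of -0.66 and -0.56 with captopril (adjusted p = 0.0057 and 0.011), and higher in Tg-18mo than in Tg-12mo (1.09 and 0.85, adjusted p = 2.4e-04 and 9.5e-04). Of 8 other basement membrane genes, 4 were lower with captopril and 1 was higher. Lama1, a laminin chain of the pial basement membrane, reached the minimum in Tg-18mo only, the group where it is high, with 51.5 and 32.7 in Tg-18mo-ACEI, against 119.7 and 99.9 in Tg-18mo (log2 difference -1.41 ± 0.34, adjusted p = 0.014), and Lamb1, another laminin chain, was higher (log2 difference 0.61 ± 0.14, adjusted p = 0.011). Of 7 matrix proteases and inhibitors, 1 was lower, the metalloproteinase inhibitor Timp3 (log2 difference -0.45 ± 0.07, adjusted p = 0.0015). Matrix receptors were lower in 2 and higher in 3 of 12 cases. Sdc4, a syndecan, a cell-surface proteoglycan of astrocytes among other cells, had 1923 and 2060.0 in Tg-18mo-ACEI, 1175 and 1230.3 in Tg-18mo and 4626 and 4814 in Tg-12mo, higher with captopril (log2 difference 0.73 ± 0.06, adjusted p = 5.2e-05) and lower with age (log2 difference -1.97 ± 0.06, adjusted p = 8.6e-07). Among 13 genes of TGF-beta signalling, a main inducer of collagen genes, 3 were lower, near the share of all genes, and 1 was higher with captopril. The ligands moved apart, with Tgfb2 higher (log2 difference 0.97 ± 0.07, adjusted p = 2.9e-05) and Tgfb3 lower (log2 difference -0.75 ± 0.16, adjusted p = 0.0083), and the known target Ccn2 had a log2 difference of -0.24 (adjusted p = 0.033).

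With captopril, markers of some other cells were lower beside the matrix genes, while those of others went both ways or did not pass. Of 19 further genes of the meninges, 14 were lower with captopril (21.7% of all genes were) and the others did not pass, with a median log2 difference of -0.65. The most marked were Slc13a4, a sulfate transporter, with 242 and 217 in Tg-18mo-ACEI against 1005 and 909 in Tg-18mo (log2 difference -2.06), Igfbp2 (-1.72) and Igf2 (-1.51). Their summed signal was 24976 and 24366 in Tg-18mo-ACEI, 35554 and 36478 in Tg-18mo and 49951 and 49399 in Tg-12mo, with Ptgds the brightest. The fibroblast transcription factors Foxc1 and Foxd1 did not pass (log2 differences 0.21 and 0.41). Meningeal markers were thus measurable in all 3 groups. Several of these genes and of the matrix genes are also expressed by vessels and by the choroid plexus, and no list here is exclusive to fibroblasts.

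Markers of the choroid plexus epithelium, which lies beside the hippocampus, were lower with captopril in 10 of 11 cases, with a median log2 difference of -2.43. Markers of the ependyma were lower in 6 of 6 with -1.01 (21.7% of all genes were lower). Kcnj13, a potassium channel of the plexus, had 262 and 227 in Tg-18mo-ACEI, against 1567 and 1701 in Tg-18mo (log2 difference -2.74), while Ttr, the brightest plexus gene, had 20358 and 18370.3 in Tg-18mo-ACEI, against 17548 and 19806 in Tg-18mo and did not pass. The summed plexus signal was 22845 and 20996 in Tg-18mo-ACEI, 28227 and 30629.6 in Tg-18mo and 46814 and 46388 in Tg-12mo, most of it from Ttr, and that of the ependyma was 1742 and 1568 in Tg-18mo-ACEI, 3115 and 2847 in Tg-18mo and 2907 and 2727 in Tg-12mo. No defining marker of either list was at 0. The part that the amount of choroid plexus, ependyma and meninges in the dissected tissue had in the lower matrix signals was not tested.

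Vascular smooth muscle and pericyte genes were lower with captopril in 7 of 10 cases (21.7% of all genes were), with a median of -0.43. With age they were higher in 6 of 10 (28.0% of all genes were), with a median of 0.69. Their summed signal was 9098 and 9319 in Tg-18mo-ACEI, 12550.0 and 12733 in Tg-18mo and 8817 and 9147 in Tg-12mo, Rgs5 being the brightest. Brain endothelium showed no such shift, with 1 of 9 genes lower and 2 higher, a median of -0.13, and a summed signal of 9199 and 9047 in Tg-18mo-ACEI, 9393 and 9663 in Tg-18mo and 10502 and 9967 in Tg-12mo. Among astrocyte genes 2 of 6 were lower and 3 higher, and among hippocampal neuron genes 2 of 8 were lower and 1 higher. The higher neuron gene, Prox1, had 448 and 442 in Tg-18mo-ACEI, 162 and 139 in Tg-18mo and 168 and 220 in Tg-12mo. Its captopril difference was the largest of the neuron list (log2 difference 1.57 ± 0.17, adjusted p = 2.9e-04). Over all genes 21.7% were lower and 12.6% higher with captopril. The macrophage markers of vessels and meninges tested here, Mrc1 and Pf4, did not pass with captopril. No gene of red blood cells reached the minimum. The part of vessel cells in the matrix differences was not tested.

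**Figure D4:**
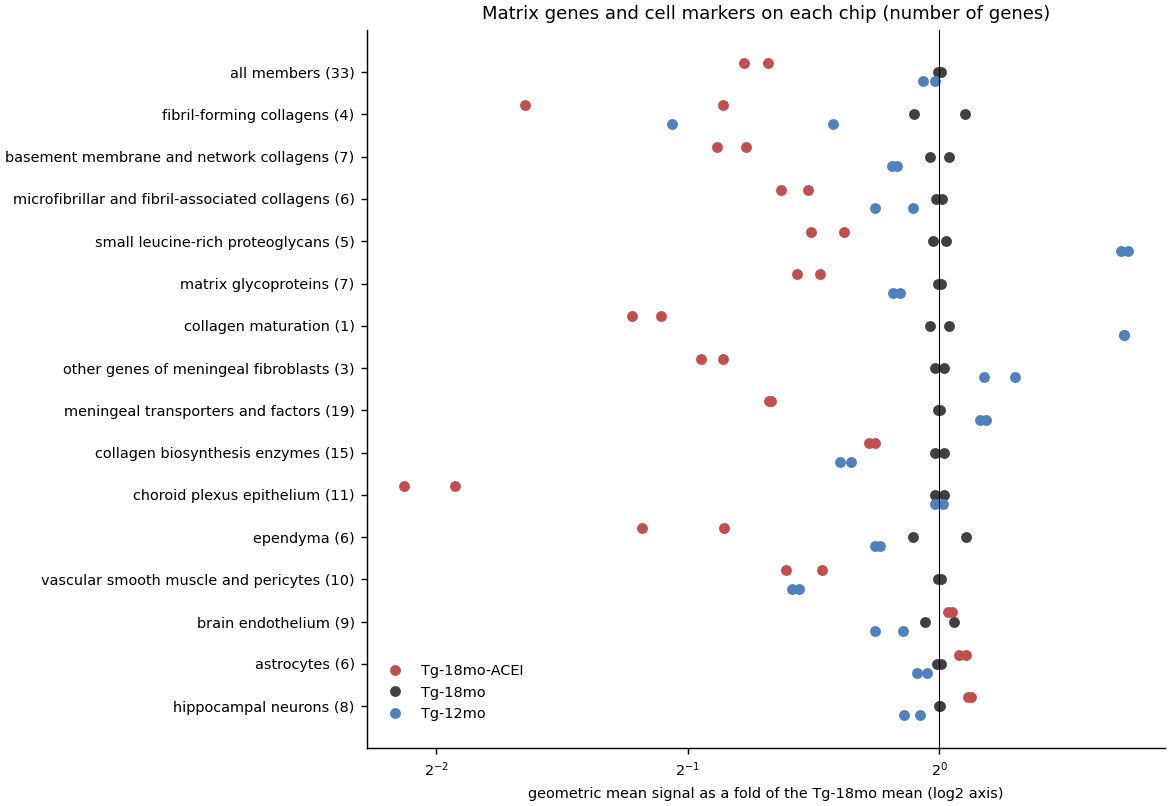
Geometric mean signal of each gene list on each chip as a fold of the Tg-18mo mean (horizontal log2 axis), with the number of genes in brackets. Points are chips, Tg-18mo-ACEI, Tg-18mo and Tg-12mo from top to bottom within each list. The captopril chips of all 33 matrix genes sit at 0.624 and 0.585, those of the choroid plexus epithelium at 0.229 and 0.263 and those of the brain endothelium at 1.02 and 1.03.

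Measures of chip quality also differed between the groups. Correlations of log2 signals, taken over probe sets that are not independent of each other, were 0.987 to 0.992 within groups and 0.958 to 0.965 between them. The 18S ribosomal RNA 3′ control read 2214 and 1999.95 in Tg-18mo-ACEI, 10219 and 11144 in Tg-18mo and 2125 and 2121 in Tg-12mo. The 3′/5′ ratio of Actb was 1.45 and 1.38 in Tg-18mo-ACEI, 1.98 and 1.88 in Tg-18mo and 1.83 and 1.77 in Tg-12mo. That of Gapdh was closer between groups, 0.854 and 0.855 in Tg-18mo-ACEI, 0.828 and 0.832 in Tg-18mo and 0.862 and 0.849 in Tg-12mo. The highest signal on a chip was 23607 and 21934 in Tg-18mo-ACEI, 24057 and 25102 in Tg-18mo and 39494 and 40189.9 in Tg-12mo. Mean signals were 806 and 796 in Tg-18mo-ACEI, 805 and 817 in Tg-18mo and 897 and 902 in Tg-12mo. The part of these chip measures in the matrix differences was not tested.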

How the data were processed

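The authors deposited linear signal intensities, 1 for each probe set on each chip, which GCOS had scaled to a target of 600. Hippocampal RNA of 4 mice was pooled per chip, and groups were taken from the labels. Of 45101 probe sets, 64 controls were left out, and the 23262 with a group mean of 100 or more entered the test. A linear model with 3 group means was fitted to the log2 signals of all 6 chips (limma 3.58.1 in R 4.3.3, moderated variances with an intensity trend, 3 residual and 5.37 prior degrees of freedom). The Benjamini-Hochberg adjustment ran over all of them, with a threshold of 0.05. The fit was tested on simulated data. Errors are standard errors of the fit. Symbols came from the platform annotation. The members and lists were chosen with earlier results of these data known. Values on every chip were given for at most 10 called genes per comparison with the largest absolute difference and for genes whose probe sets passed in opposite directions, at most 3 genes per related list and the brightest gene per marker list. Genes and probe sets named beyond this rule (Col1a2, Col4a1, Sparc, Slc13a4, Kcnj13, Prox1 and second probe sets among them) were chosen after their values were seen. Promoter windows are from RefSeq (GRCm38.p6). Figures were drawn with matplotlib 3.10.9 and pandas 2.3.3 in Python 3.11.15. Raw scans, detection calls and the RMA values that the methods mention were not used here. Precision is limited by 2 chips a group.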

Additional observations from a re-analysis of the deposited data

How the results depend on the processing

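The counts were repeated with 32 added to each signal, without the signal filter, with a mean of at least 200 over all chips, after quantile normalization or division of each chip by its median, with only the pair of groups compared, with a replicate block, without the intensity trend or without variance moderation, with the mean of a gene's tested probe sets, at the thresholds of the study's methods, and without each chip in turn. With captopril, 0 genes were higher under every one of these, and the 22 lower genes became 13 without variance moderation and 8 at the study's thresholds, with 15 to 22 when 1 chip was left out. With age, the 7 higher genes became 4 without moderation and 1 at the study's thresholds (3 to 8 with 1 chip left out), and the 7 lower genes became 1 at the study's thresholds (4 to 7). For Tg-18mo-ACEI over Tg-12mo, the 1 higher gene, Col4a1, became 0 without the filter, with quantile normalization, division by the chip median, only the pair of groups, the replicate block, no moderation and the study's thresholds, and 2 with the mean of probe sets (0 to 1 with 1 chip left out). Without the intensity trend Col4a1 also lost its call and Col6a3 gained one. The 18 lower genes became 11 at the study's thresholds. Those thresholds, applied to the limma fit, replace the adjusted p by an unadjusted one and add a 2-fold difference, and their parts were not separated. The cause of the changes was not tested. With the replicate block 20 genes were lower with captopril, 7 were higher and 6 lower with age, and 18 were lower and 0 higher for Tg-18mo-ACEI over Tg-12mo. Chips of the same number did not deviate together (correlations -0.03, 0.03 and -0.05 over probe sets), which cannot tell whether they were handled together. For the at most 10 called genes per comparison with the largest differences, none changed direction in a repeat. Their calls were counted once per gene and repeat in which it was tested, the repeat at the study's thresholds left out. Counted so, calls were lost 13 times with captopril, 24 times with age and 1 time for Tg-18mo-ACEI over Tg-12mo. They were kept 143, 132 and 156 times, and most losses were those of Col15a1, Col1a1 and Col4a5. At the study's thresholds more calls were lost, as the counts above show. Over all 33 genes, averaging probe sets turned the sign of 2 genes with captopril (Col4a1 and Ogn), 4 with age (Col18a1, Col6a2, Col9a3 and Bgn) and 1 for Tg-18mo-ACEI over Tg-12mo (Fbln1, the only one of them called by its brightest probe set). With 2 chips a group, a difference that did not pass may still be present, and signals under 100 fix a direction better than a size.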
